A study of Mus musculus with 4 samples.

Results

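The 10 genes described here encode enzymes that build the cores, branches, extensions and the terminal GlcNAc cap of mucin-type O-glycans, together with the chaperone of one of them. They were taken by symbol from a given list of enzymes, and all 10 were present among the 34866 genes of the count table. RNA sequencing was done on gastric mucosa of the corpus, the acid-secreting body of the stomach, from Muc6 -/- mice (knockout, 2 libraries) and from Muc6 +/+ mice (wild type, 2 libraries). Muc6 is the gel-forming mucin of gastric gland cells, and the series asks how its loss relates to gastric carcinogenesis. The sources used here give no strain, age or design of the null allele. Nothing in the labels tells whether each library is a different mouse, and p-values therefore cover the spread between these samples alone, part of which may be technical.

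Mucin-type O-glycans start with a GalNAc placed on serine or threonine. C1galt1 turns that sugar into core 1 and B3gnt6 turns it into core 3, and the Gcnt enzymes branch these cores with GlcNAc. B3gnt3 and B4galt1 lengthen the chains, B4galnt3 can place GalNAc where B4galt1 would place galactose, and A4gnt finishes chains of gland mucins with an alpha-1,4-linked GlcNAc. In the stomach this cap marks the class III mucin of mucous neck and pyloric gland cells, whose main carrier is MUC6, and mice without A4gnt are known to develop gastric adenocarcinoma of the antrum.

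The stretches before the start sites of 3 of these genes are shown first: A4gnt because it makes the cap and was 5.0-fold apart between the knockout libraries, and B4galnt3 and B4galt1 because both were lower in the knockout libraries without overlap. Each is the 250 bases upstream of a RefSeq start (GRCm38.p6, the assembly also called mm10), written 5′ to 3′ on the strand of the gene. Capitals mark matches on either strand to 3 motifs. The GC box was searched as GGGCGG. The TATA box was searched as TATAAA. The CCAAT box was searched by its name, CCAAT. The positions are chr9:99612252-99612501 on the plus strand for A4gnt, chr6:120294898-120295147 on the minus strand for B4galnt3 and chr4:40853985-40854234 on the minus strand for B4galt1.
A4gnt: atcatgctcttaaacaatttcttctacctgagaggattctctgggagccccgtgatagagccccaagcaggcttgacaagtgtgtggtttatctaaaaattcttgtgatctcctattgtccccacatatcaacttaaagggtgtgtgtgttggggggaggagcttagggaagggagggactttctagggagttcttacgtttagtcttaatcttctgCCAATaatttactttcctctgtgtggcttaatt
B4galnt3: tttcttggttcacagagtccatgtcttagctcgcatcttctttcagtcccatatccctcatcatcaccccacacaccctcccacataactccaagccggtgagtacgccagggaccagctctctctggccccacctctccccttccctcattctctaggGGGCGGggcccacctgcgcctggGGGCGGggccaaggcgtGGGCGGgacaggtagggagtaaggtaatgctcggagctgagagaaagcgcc
B4galt1: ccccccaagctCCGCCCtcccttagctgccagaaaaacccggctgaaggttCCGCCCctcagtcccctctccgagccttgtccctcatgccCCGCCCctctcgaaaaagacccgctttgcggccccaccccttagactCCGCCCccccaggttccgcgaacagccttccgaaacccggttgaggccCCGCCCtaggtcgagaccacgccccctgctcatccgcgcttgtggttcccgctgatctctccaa
The A4gnt stretch held 1 CCAAT match, no GC box and 2 CpG pairs at 43.6% G+C. The B4galnt3 stretch held 3 GC boxes and 10 CpG pairs at 60.8% G+C, and the B4galt1 stretch held 5 GC boxes and 19 CpG pairs at 66.4% G+C. Among 32841 upstream stretches of that length, 32.7% held a GC box, 12.4% a TATA box and 33.9% a CCAAT box, with a median of 52.4% G+C and of 6 CpG pairs. A match describes these letters only. The RefSeq start of B4galnt3 lies 338 bases from the GENCODE start, while that of A4gnt is the same in both. Of the 10 genes, 7 had a RefSeq stretch, and C1galt1c1, Gcnt3 and B3gnt6 had none. Among the stretches not shown, C1galt1 held 5 GC boxes, Gcnt4 2, B3gnt3 1 and Gcnt1 0. Gcnt1 and Gcnt4 were both higher in the knockout libraries without overlap, and of these only Gcnt4 held GC boxes. Gcnt1 held 2 TATA matches and 1 CCAAT match. Any relation of these motifs to the direction of a gene was not tested.

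Depth ranged from 20327745 to 27946423 counts per library. Muc6 had 0 and 10 counts in knockout 1 and 2, against 8542 and 6000 counts in wild type 1 and 2, so all 4 libraries followed their labels. The genotypes also differed in the summed level of 4 Y-linked genes, at 1.43 and 2.44 CPM (counts per 1000000 counts of a library, with library sizes scaled by TMM factors) in knockout and 136.0 and 120.9 CPM in wild type, and genotype and this difference cannot be told apart for any gene below. Parietal cell markers, which define the corpus, were present in every library but lower in knockout for 12 of 12 genes, and summed to 930.9 and 5788.9 CPM in knockout, against 17916.2 and 17314.6 CPM in wild type. Antral markers summed to 249.5 and 41.1 CPM in knockout 1 and 2, against 15.9 and 16.0 CPM in wild type, and the antral hormone gene Gast had 218 counts in knockout 1, 0 in knockout 2, and 1 and 0 in wild type. Smooth muscle and fibroblast markers split the libraries the other way, at 391.7 and 1991.6 CPM in knockout 1 and 2 and 320.3 and 2132.9 CPM in wild type 1 and 2. Markers of metaplastic glands (SPEM, spasmolytic polypeptide-expressing metaplasia) were higher in knockout for 12 of 12 genes, 10 of them without overlap, and summed to 19484.5 and 11448.4 CPM in knockout, against 2797.1 and 2048.5 CPM in wild type. Tff2 and Clu together made most of each of these sums. Tff2 was at 11708.8 and 7314.1 CPM in knockout, against 1022.2 and 679.3 CPM in wild type. Clu was at 3518.7 and 2559.2 CPM, against 1319.0 and 985.7 CPM. All 12 cell cycle genes were higher without overlap. Of all genes tested, 26.3% were higher without overlap. In bulk mucosa, fewer cells of a type and less RNA per cell cannot be told apart.

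Of the 10 enzyme genes, 9 passed the filter on low counts and entered the fit across 14067 genes. By edgeR's quasi-likelihood test none of the 9 passed an adjusted p of 0.05, and neither did any other gene (0 called, 0.0%). At an unadjusted p of 0.05 the test took 1 of the 9, B4galnt3, which was lower, against 15.9% of all genes tested (2236 genes), 6.68% lower and 9.22% higher. DESeq2 called 1044 genes (7.42%) and again B4galnt3 alone among the 9, while limma voom called 0. The 9 genes went both ways, with 5 higher and 4 lower in knockout and a median log2 fold change of 0.16, while 49.9% of all genes tested were higher, with a median of -0.00. Libraries of the genotypes did not overlap for 2 higher genes, Gcnt1 and Gcnt4, and for 2 lower ones, B4galnt3 and B4galt1. Over all genes tested the shares without overlap were 26.3% higher and 23.8% lower, so that count is no result about these enzymes. The smallest two-sided p that exact permutation of 2 against 2 libraries allows is 0.333.

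**Figure D1:**
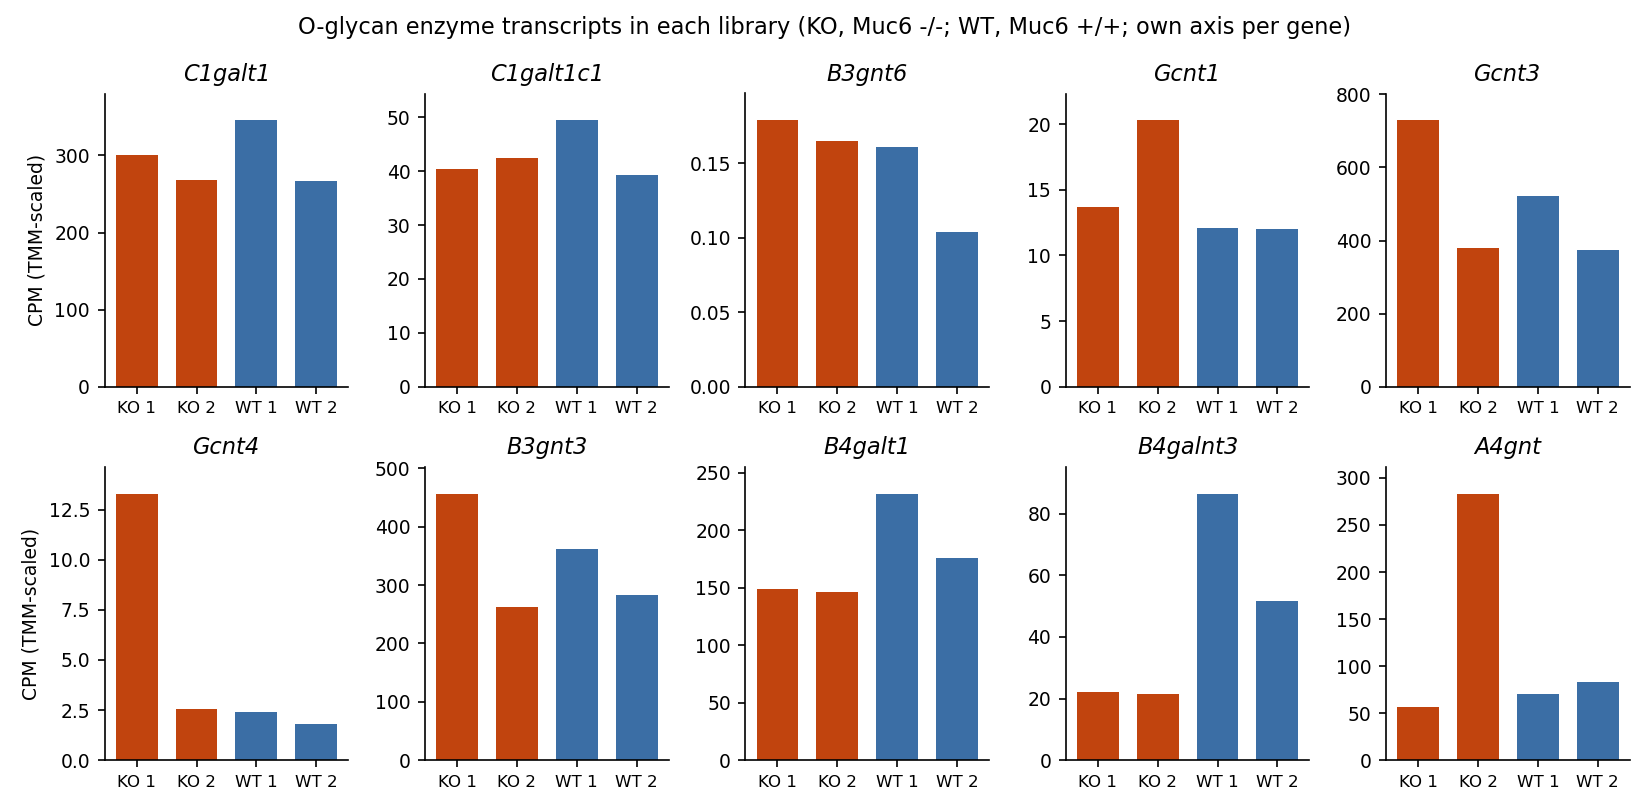
CPM (TMM-scaled) of each gene in knockout 1 and 2 and wild type 1 and 2, as bars from 0 with an axis of its own for each gene. B4galnt3 is near 22 CPM in both knockout libraries and at 86.5 and 51.6 CPM in wild type, A4gnt stands out in knockout 2 alone at 283.3 CPM, and Gcnt4 in knockout 1 alone at 13.3 CPM.

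The transcripts for core 1 overlapped between the genotypes. C1galt1 (ENSMUSG00000042460.5, chr6:7844842-7875687, plus strand), which adds galactose to the first GalNAc, was at 300.7 and 267.7 CPM in knockout 1 and 2 and at 345.8 and 267.0 CPM in wild type 1 and 2. The lowest wild-type library was below both knockout libraries and the highest above both. Its log2 fold change was -0.11 ± 0.22 (SE of 2 against 2 libraries; edgeR adjusted p = 0.86). C1galt1c1 (ENSMUSG00000048970.9, chrX:38630785-38635087, minus strand) encodes Cosmc, the endoplasmic reticulum chaperone that C1galt1 protein needs to fold. It was at 40.5 and 42.5 CPM in knockout, against 49.5 and 39.3 CPM in wild type, again with overlap (log2 fold change -0.10 ± 0.17, edgeR adjusted p = 0.825). There were 742.7 and 629.9 counts of C1galt1 per 100 counts of C1galt1c1 in knockout, against 698.6 and 678.9 in wild type. As a log2 ratio within a library, which does not depend on scaling between libraries, this was 2.77 ± 0.17 in knockout and 2.78 ± 0.03 in wild type (SD, n = 2 each).

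Core 3 synthesis had almost no transcript. B3gnt6 (ENSMUSG00000074004.3, chr7:98192417-98199481, minus strand), the core 3 synthase, had 4 and 4 counts in knockout and 4 and 2 counts in wild type, too few to enter the fit. The ratio of summed counts, 8 in knockout and 6 in wild type, was 1.26 with an exact 95% interval of 0.384 to 4.41 (Clopper-Pearson, conditional on the sum), which covers counting error only. No difference was detectable at this depth. B3gnt6 reached 0.0596 and 0.0617 counts per 100 counts of C1galt1 in knockout, against 0.0467 and 0.039 in wild type. Per kilobase of exon it made 0.0475% and 0.0699% of the summed level of the 8 B3gnt genes in knockout and 0.0503% and 0.0416% in wild type.

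A single gene held most of the branching enzyme transcript in both genotypes. Gcnt3 (ENSMUSG00000032226.5, chr9:70031496-70038088, minus strand), the mucin-type enzyme that makes core 2 and core 4 branches, carried 96.4% and 95.0% of the summed level per kilobase of the 5 Gcnt genes in knockout, and 97.3% and 95.7% in wild type. Its own level was 729.6 and 380.0 CPM in knockout, against 521.9 and 373.3 CPM in wild type. Knockout 1 was the highest library, and knockout 2 lay between the wild-type libraries. The log2 fold change was 0.31 ± 0.41 (SE of 2 against 2 libraries; edgeR adjusted p = 0.776), and -0.28 without knockout 1.

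Gcnt1 (ENSMUSG00000038843.17, chr19:17326141-17372844, minus strand), the broadly expressed core 2 enzyme, was at 13.7 and 20.3 CPM in knockout, against 12.1 and 12.0 CPM in wild type. Both knockout libraries were above both wild-type libraries, with a log2 fold change of 0.50 ± 0.24 (SE of 2 against 2 libraries; edgeR adjusted p = 0.414). Without knockout 2 it was 0.13. Gcnt4 (ENSMUSG00000091387.2, chr13:96924689-96950906, plus strand), a further core 2 enzyme, had 296 and 62 counts in knockout 1 and 2 and 59 and 35 counts in wild type 1 and 2. In CPM these were 13.3 and 2.56 in knockout, against 2.38 and 1.82 in wild type, so that knockout 1 stood apart and knockout 2 was close to wild type 1. The log2 fold change was 1.91 ± 0.88 (edgeR adjusted p = 0.394). It was 0.24 without knockout 1, and 2.60 without knockout 2, where edgeR's adjusted p was 0.0414 and 5.8% of 14672 genes passed. Knockout 1 was also the library with the highest sums of 3 marker lists of other tissue. Besides the antral markers given above, intestine and Brunner gland markers summed to 1999.3 and 621.5 CPM in knockout 1 and 2, against 523.9 and 308.7 CPM in wild type, with 7 of 8 tested genes higher. Most of each sum was Lgals4, at 1240.8 and 429.3 CPM in knockout and also at 397.8 and 223.8 CPM in wild type. Cdx1, Cdx2, Cps1 and Sis did not enter the fit. They had 0, 9, 23 and 93 counts in knockout 1 and 0, 0, 8 and 1 in knockout 2. Wild type 1 had 1, 0, 0 and 13 counts of them, and wild type 2 had 0, 0, 4 and 0. Squamous forestomach markers summed to 196.9 and 13.5 CPM in knockout 1 and 2, against 1.13 and 0.781 CPM in wild type, with 4 of 4 tested genes higher and with Trp63, Krtdap and Sprr3 at 0 in all 4 libraries. The part of these tissues in the Gcnt4 value was not tested. The ratio of Gcnt3 to Gcnt1 spread more within knockout than between the genotypes, with log2 ratios of 5.74 and 4.22 in knockout and of 5.43 and 4.96 in wild type.

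**Figure D2:**
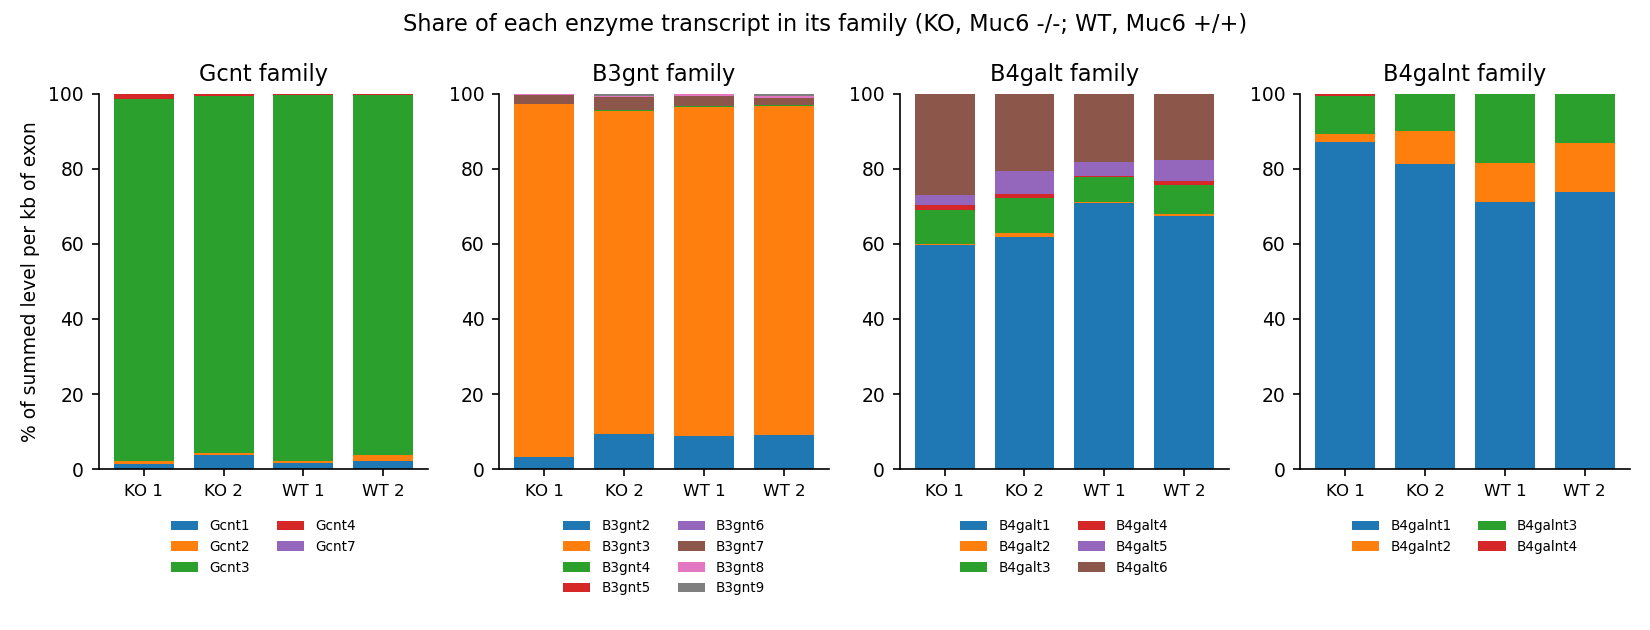
Share, in percent, of each gene in the summed level per kilobase of exon of its family, for the Gcnt, B3gnt, B4galt and B4galnt families, with 1 stacked bar per library. Gcnt3 and B3gnt3 make up most of their families in all 4 libraries, B4galt1 is at 59.8% and 61.8% in knockout and 70.9% and 67.3% in wild type, and B4galnt1 is the main B4galnt gene.

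B3gnt3 likewise held most of the transcript of its family. B3gnt3 (ENSMUSG00000031803.8, chr8:71690756-71701789, minus strand), which adds GlcNAc to core 1 chains, made 93.9% and 85.9% of the summed level per kilobase of its family in knockout and 87.6% in each wild-type library. It was at 456.8 and 261.7 CPM in knockout, against 361.8 and 282.4 CPM in wild type. The knockout libraries lay on either side of the wild-type ones (log2 fold change 0.16 ± 0.35, SE; edgeR adjusted p = 0.873), and the value was -0.34 without knockout 1. Gcnt3 and B3gnt3 shared this pattern across libraries, with knockout 1 highest, wild type 1 next, and the other libraries below.

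The main galactosyltransferase transcript of its family differed from Gcnt3 and B3gnt3 in its pattern. B4galt1 (ENSMUSG00000028413.13, chr4:40804602-40854005, minus strand), which adds beta-1,4-linked galactose to GlcNAc, was at 148.8 and 146.5 CPM in knockout, against 232.0 and 176.1 CPM in wild type. Both knockout libraries were below both wild-type libraries. The log2 fold change was -0.47 ± 0.21 (SE of 2 against 2 libraries; edgeR adjusted p = 0.376), 1.38-fold lower, and it missed the threshold by DESeq2 too (adjusted p = 0.223). Without wild type 1 it was -0.25. B4galt6, the next most abundant gene of the family, made 27.1% and 20.6% of the family's level per kilobase in knockout and 18.2% and 17.7% in wild type. In CPM, though, B4galt6 overlapped between the genotypes, at 92.4 and 66.9 in knockout, against 81.9 and 63.5 in wild type. Its log2 fold change was 0.13 ± 0.24, and that of B4galt3 was 0.06 ± 0.13 (SE).

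B4galnt3 had the lowest p of the 9 tested genes, rank 303 of 14067. B4galnt3 (ENSMUSG00000041372.10, chr6:120203073-120294559, minus strand) adds beta-1,4-linked GalNAc to GlcNAc, which makes the LacdiNAc group known from gastric mucins. It had 496 and 522 counts in knockout and 2144 and 991 counts in wild type, or 22.2 and 21.6 CPM in knockout, against 86.5 and 51.6 CPM in wild type. Knockout 2 was at 0.969 times the level of knockout 1, and the wild-type libraries were 1.68-fold apart and both above. This is a log2 fold change of -1.66 ± 0.29 (SE of 2 against 2 libraries), 3.15-fold lower. Its adjusted p was 0.21 in edgeR's quasi-likelihood fit and 1.08e-04 in DESeq2. Over the other edgeR and limma settings, fits without 1 library included, the adjusted p ranged from 0.121 to 0.738 and the log2 fold change from -1.99 to -1.23. The summed parietal and surface pit cell markers were lower in the same libraries, as they were for B4galt1. The pit sum was 67389.7 and 53688.5 CPM in knockout and 118493.7 and 79464.6 CPM in wild type. All 10 pit genes were lower and 5 were so without overlap, against 23.8% of all genes tested. Their log2 fold changes ranged from -1.26 for Gkn1 to -0.04 for Tff1 and Muc1, so the pit genes were not lowered alike. Among the pit genes, the surface mucin Muc5ac was at 5778.0 and 4872.4 CPM in knockout, against 12430.9 and 7345.3 CPM in wild type. The part of these cells in the B4galnt3 and B4galt1 values was not tested. An antisense gene, D330020A13Rik, overlaps B4galnt3 and held at most 6.13% of its counts in any library, and no source used here says whether counting used strand.

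Set against B4galt1, which acts on the same GlcNAc acceptor, B4galnt3 had 14.9 and 14.7 counts per 100 counts in knockout and 37.3 and 29.3 in wild type. The mean log2 ratio was -2.75 ± 0.02 in knockout and -1.60 ± 0.24 in wild type (SD, n = 2 each), a difference of -1.16 that is larger than the spread within either genotype. It stayed between -1.33 and -0.98 when any 1 library was left out. This ratio uses no scaling between libraries.

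**Figure D3:**
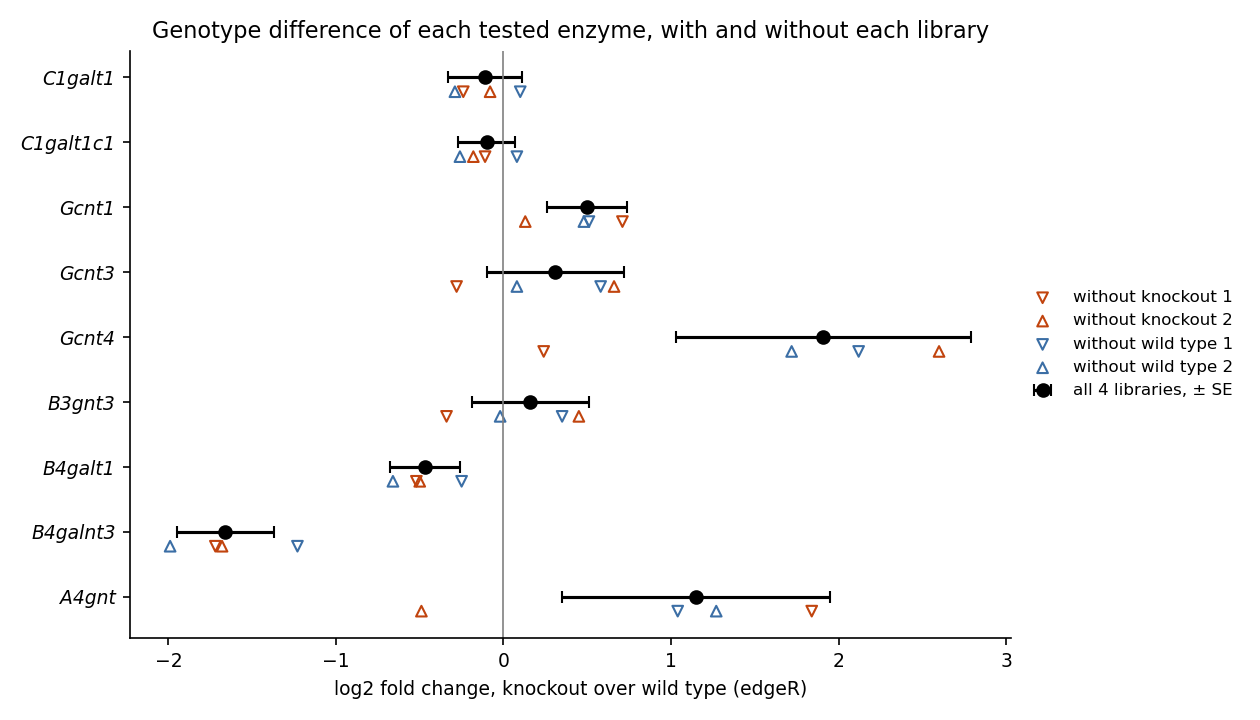
Log2 fold change of knockout over wild type for the 9 tested genes by edgeR (black points, bars ± SE) and the same value with 1 library left out (open triangles). B4galnt3 and B4galt1 stay below 0 in every such fit and Gcnt1 and Gcnt4 above 0, while A4gnt, Gcnt3, B3gnt3, C1galt1 and C1galt1c1 change sign with at least 1 library left out.

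The cap enzyme separated the knockout libraries from each other. A4gnt (ENSMUSG00000037953.7, chr9:99612502-99622367, plus strand) had 1265 and 6860 counts in knockout 1 and 2, against 1743 and 1590 counts in wild type 1 and 2. These were 56.7 and 283.3 CPM in knockout and 70.3 and 82.8 CPM in wild type. Knockout 1 was the lowest library and knockout 2 the highest, 5.0-fold apart, while the wild-type libraries were close. The log2 fold change of 1.15 ± 0.80 (SE of 2 against 2 libraries; edgeR adjusted p = 0.557) joins a knockout 1 that was -0.433 log2 units from the wild-type mean CPM and a knockout 2 that was 1.89 log2 units from it. It was -0.49 without knockout 2 and 1.84 without knockout 1.

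The main secreted partner of gland mucin did not follow A4gnt across the knockout libraries. Tff2, the trefoil peptide that travels with gland mucin, was at 11708.8 and 7314.1 CPM in knockout, against 1022.2 and 679.3 CPM in wild type. A4gnt therefore had 0.484 and 3.87 counts per 100 counts of Tff2 in knockout and 6.88 and 12.2 in wild type, a log2 ratio of -6.19 ± 2.12 in knockout and -3.45 ± 0.58 in wild type (SD, n = 2 each). The genotypes did not overlap, and the difference of -2.74 was -1.24 without knockout 1 and -4.24 without knockout 2. Relative to B4galt1, A4gnt had 38.1 and 193.4 counts per 100 counts in knockout, against 30.3 and 47.0 in wild type. Chief cell markers summed to 2349.0 and 81813.3 CPM in knockout 1 and 2, and to 64909.4 and 148672.6 CPM in wild type, so knockout 1 was lowest there too. Most of that sum in every library was the pepsinogen gene Pgc. It was at 2238.2 and 79868.4 CPM in knockout 1 and 2, against 63619.0 and 145529.2 CPM in wild type. Of the 12 mucous neck markers, 9 were higher in knockout, 8 of them without overlap, against 26.3% of all genes tested. The 3 lower ones included Muc6, the gene knocked out. Tff2, Cd44, Aqp5, Gkn3 and Cftr are also in the list of metaplastic gland markers, so the 2 lists are not separate observations. The sum of the neck markers was 16929.4 and 90161.9 CPM in knockout 1 and 2, against 65867.1 and 147229.6 CPM in wild type 1 and 2. Pgc is in this list too and made most of the sum outside knockout 1. The neck and chief sums there largely repeat 1 gene. The neck list did not share 1 order of the knockout libraries. Tff2, Cd44, Atp2a3 and Cftr were higher in knockout 1, while Aqp5, Gkn3, Pgc, Galnt6, Bhlha15, Creb3l4 and Agr2 were higher in knockout 2. The part of chief, neck or antral cells in the A4gnt values was not tested.

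**Figure D4:**
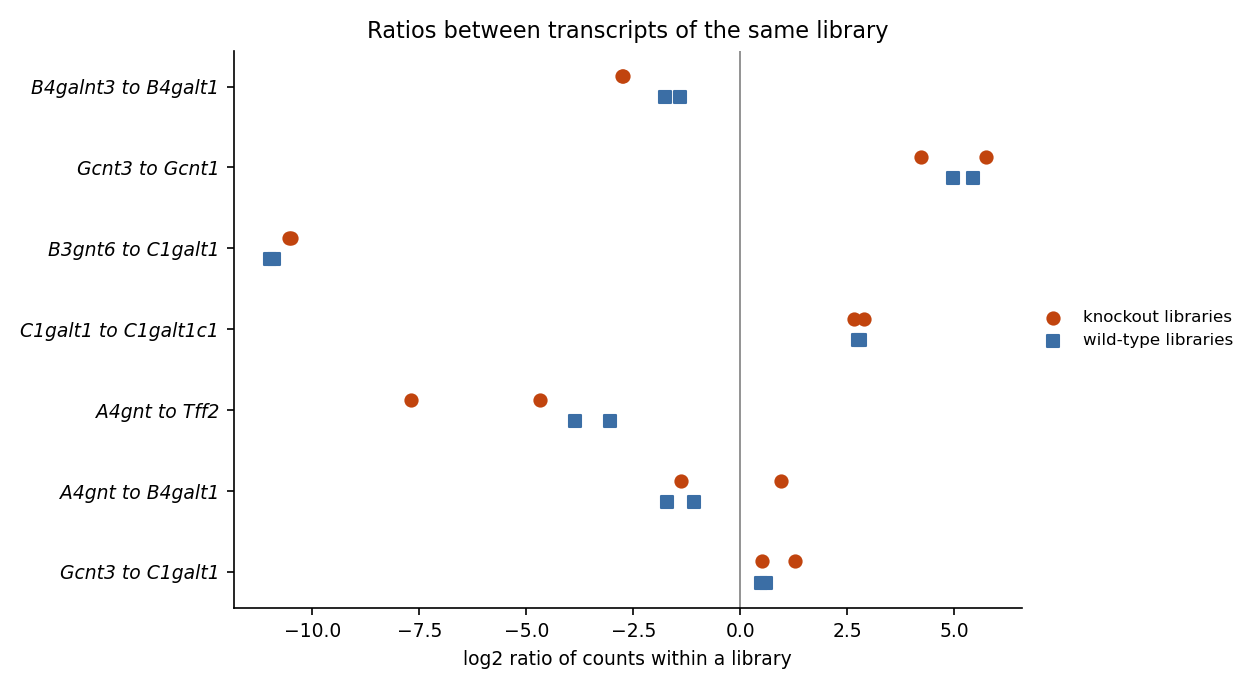
Log2 ratio of the counts of 2 genes within the same library, for 7 pairs, with knockout libraries as circles and wild-type libraries as squares below them. B4galnt3 to B4galt1 and A4gnt to Tff2 are lower in both knockout libraries, C1galt1 to C1galt1c1 lies between 2.65 and 2.89 throughout, and B3gnt6 to C1galt1 rests on 2 to 4 counts of B3gnt6 per library.

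As counts per kilobase of exon scaled to a common library sum, on which genes of a library can be compared, the order in knockout was led by Gcnt3 at 303.5 ± 150.8 and B3gnt3 at 276.2 ± 120.8, against 171.8 ± 40.9 and 174.0 ± 31.0 in wild type (mean and SD, n = 2 each). The means of these neighbours do not differ beyond their spread between libraries in either genotype. Within libraries, Gcnt3 was above B3gnt3 except in wild type 2. By its knockout mean A4gnt came next, at 139.3 ± 126.7 in knockout and 45.8 ± 5.13 in wild type, with a spread that covers its neighbours in knockout. C1galt1 was at 108.6 ± 15.2 in knockout and 83.0 ± 15.4 in wild type, and B4galt1 at 81.0 ± 5.58 in knockout and 79.5 ± 15.7 in wild type. In wild type these 2 means lay within their spread between libraries. Within every library, though, C1galt1 was above B4galt1, at 93.9 against 90.6 in wild type 1 and 72.1 against 68.4 in wild type 2. C1galt1c1 was at 66.4 ± 1.58 in knockout and 50.6 ± 8.37 in wild type. In single libraries A4gnt was at 49.7 and 228.9 in knockout 1 and 2, below C1galt1c1 in knockout 1 and above Gcnt3 in knockout 2, against 42.2 and 49.4 in wild type. B4galnt3 followed C1galt1c1 at 13.5 ± 1.08 in knockout and 30.2 ± 10.9 in wild type, then Gcnt1 at 6.8 ± 1.5 in knockout and 3.45 ± 0.0371 in wild type, Gcnt4 at 3.71 ± 3.67 in knockout and 0.682 ± 0.13 in wild type, and B3gnt6 at 0.169 ± 0.0196 in knockout and 0.0924 ± 0.0285 in wild type. In knockout 1 alone Gcnt4 was above Gcnt1, at 6.31 against 5.74. The levels per kilobase carry no TMM factor, so they order genes within a library and give no genotype difference.

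Genes near in library profile were sought for A4gnt, B4galnt3 and Gcnt3. Profiles were compared by the Euclidean distance between log2 CPM values centred on their mean over the 4 libraries. The 8480 genes compared were tested, had a named symbol and a mean of at least 10 CPM, and were no pseudogenes. The distance is not scaled to the size of the differences between libraries. A gene with large differences, such as A4gnt, tends to have fewer near genes, so their number does not tell how particular a profile is. The nearest gene was Emb, an adhesion protein gene, at a distance of 0.29 log2 units, with 6.28 and 41.8 CPM in knockout and 8.71 and 10.9 CPM in wild type. It was the only gene within 0.5 units, followed by Atf5 (0.65), Id4 (0.67), Creb3l4 (0.68) and Ppic (0.69). For B4galnt3, 18 genes lay within 0.5 units, and the nearest were Sema3e (0.22), Klrg2 (0.30), Fhl1 (0.36), Slc10a5 (0.37) and Gstk1 (0.38). Gcnt3 had 1023 genes within 0.5 units, led by Dsc2 (0.07), Mal2 (0.07), Map2k3 (0.08), Slc22a23 (0.10) and Mcu (0.10).

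The steps before and after these enzymes went both ways as well. Of 76 other listed genes of O-glycan initiation, extension, chain ends and sugar supply, 64 were tested, 34 were higher and 30 lower in knockout, and the median log2 fold change was 0.06. EdgeR called 0 of them at an adjusted p of 0.05. At an unadjusted p of 0.05 it took 8 of the 64 as higher and 10 as lower, against 9.22% higher and 6.68% lower over all genes tested. DESeq2 called 7 higher and 7 lower, against 4.06% higher and 3.36% lower over all genes tested. Initiating GalNAc transferases had 9 of 13 tested genes higher and a median of 0.53. Among these, Galnt5 was at 31.2 and 25.2 CPM in knockout, against 8.23 and 7.14 CPM in wild type (log2 fold change 1.88 ± 0.19), Galnt10 at 57.8 and 37.0 CPM, against 17.5 and 18.0 CPM (1.42 ± 0.26), and Galnt1 at 171.9 and 111.5 CPM, against 71.8 and 73.1 CPM (0.97 ± 0.26; SE, n = 2 per group throughout). For each of these 3 genes the knockout libraries were above the wild-type libraries, but they were named for their low p, which favours such separation. In this list 6 of the 13 tested genes were higher without overlap and 1 lower, against 26.3% and 23.8% of all genes tested.

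Other extension and branching genes had 8 of 17 tested members higher, with a median of -0.08. In this list 5 of the 17 were lower without overlap and 3 higher, against 23.8% and 26.3% of all genes tested. The genes with the lowest p, a choice that favours separated libraries, were all lower in knockout without overlap. B4galnt1, which makes gangliosides, had a log2 fold change of -0.77 ± 0.18. B4galnt2, which makes the Sda group, had -2.12 ± 0.72 and B3gnt8 -1.95 ± 0.47 (SE, n = 2 per group). B4galnt2 was at 2.02 and 8.42 CPM in knockout, against 22.4 and 23.1 CPM in wild type, so B4galnt1, B4galnt2 and B4galnt3 were all lower in both knockout libraries. B4galnt4 did not share this, with 25 and 4 counts in knockout and 4 and 8 counts in wild type, too few to enter the fit.

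Genes of other chain ends had 10 of 21 tested members higher, with a median of -0.16. The blood group transferase Abo had 374 and 208 counts in knockout, against 9 and 10 counts in wild type (log2 fold change 4.84 ± 0.52), and Ggta1, which makes the alpha-galactose group, was at 43.0 and 33.0 CPM in knockout, against 6.09 and 9.22 CPM in wild type (2.31 ± 0.29). The fucosyltransferase Fut4 was at 53.5 and 44.0 CPM in knockout, against 231.8 and 172.6 CPM in wild type (-2.05 ± 0.24; SE, n = 2 per group). For sugar donor supply, 7 of 13 tested genes were higher, with a median of 0.37. Gfpt1, the first enzyme of the hexosamine pathway that supplies UDP-GlcNAc, was at 526.7 and 558.4 CPM in knockout, against 314.8 and 257.1 CPM in wild type (0.92 ± 0.21). Galt and Ugp2, which supply UDP-sugars, had log2 fold changes of -0.66 ± 0.22 and -0.60 ± 0.20 (SE, n = 2 per group). By edgeR's quasi-likelihood test the adjusted p of these named genes lay between 0.178 and 0.297.

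**Figure D5:**
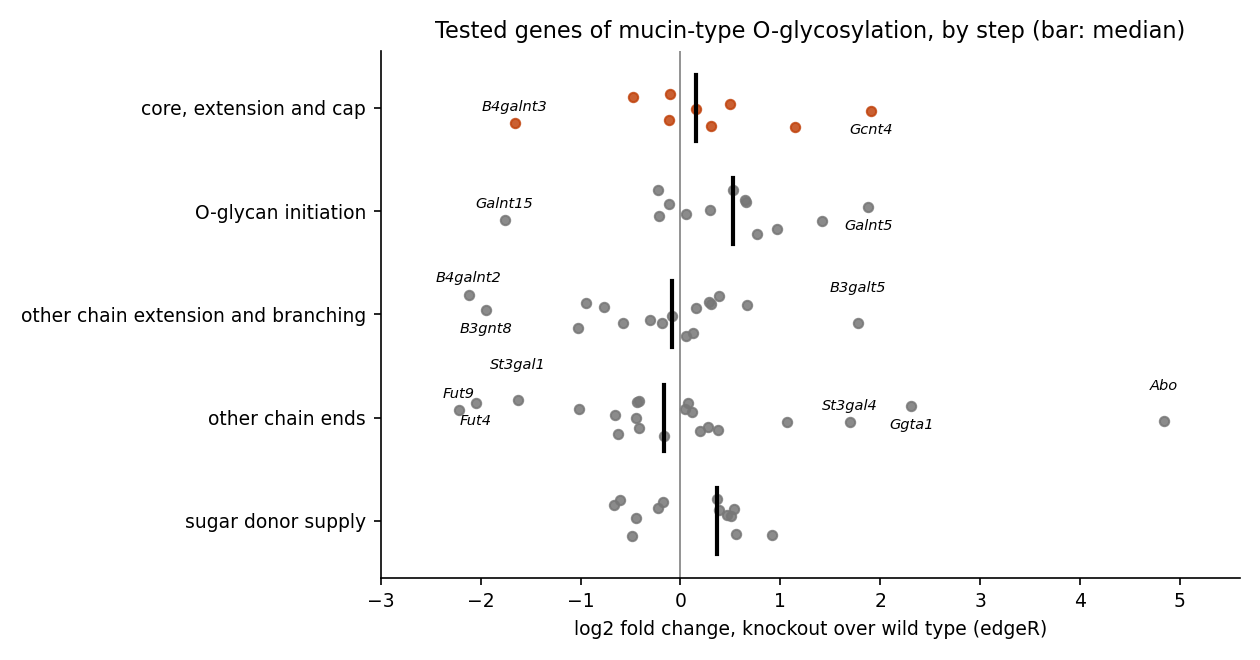
Log2 fold change of knockout over wild type (edgeR) for every tested gene of 5 lists, with 1 point per gene and a bar at the median of the list. The core, extension and cap genes in the top row spread from -1.66 for B4galnt3 to 1.91 for Gcnt4 around a median of 0.16, and Abo is the highest point at 4.84.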

How the data were processed

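The deposited table holds estimated (expected) counts per gene for 4 libraries. Per the labels' protocols, libraries came from a stranded mRNA kit, and per the submitters' processing notes the build was mm10. Aligner, counter, annotation and any use of strand in counting: not given in the sources used here. Of the nonzero values in the deposited table, 35.0% were not whole, so expected counts were rounded. Of 34866 rows, 34652 matched GENCODE M21, which gave symbols, positions and exon lengths. Promoter stretches are from RefSeq (GRCm38.p6).

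Knockout was compared with wild type by edgeR 4.0.16 in R 4.3.3 (quasi-likelihood test, robust dispersion, TMM factors and no covariate) on the 14067 genes that filterByExpr kept at a minimum of 10 counts. P-values were adjusted by Benjamini-Hochberg over those genes, and 0.05 was the threshold. The SE is the size of the log2 fold change divided by the square root of F. DESeq2 1.42.0 and limma 3.58.1 were alternatives. Within-library ratios add 0.5 counts. The fit was tested on simulated data. Libraries of a genotype were no duplicates, with a chi-square per degree of freedom of 272.1 in knockout and 138.7 in wild type. Intervals cover counting error only.

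The enzymes and lists were chosen with earlier results of these data known. Named by rule were the 10 enzymes, the 3 genes with the lowest p in each other list (10 counts or more on average in the higher genotype), Muc6, Tff2 and Muc5ac, and the 5 genes nearest in profile to A4gnt, B4galnt3 and Gcnt3. The family shares and the Y-linked list were added after the values were seen, and single marker genes were picked then too.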

Additional observations from a re-analysis of the deposited data

How the results depend on the processing

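No gene, no enzyme of the list and no other pathway gene passed edgeR's adjusted p of 0.05 under any alternative normalization, under the stricter filter, by limma voom, without robust dispersion or with the bias-adjusted deviance. Without the filter on low counts 12 genes passed, none of them in these lists. DESeq2 called 1044 genes, 1 enzyme (B4galnt3) and 14 other pathway genes. With 1 library left out the counts ranged from 0 to 851 genes, from 0 to 1 enzyme (Gcnt4, without knockout 2) and from 0 to 9 other pathway genes, the highest each time without knockout 2; the cause was not tested. Of 126 alternative fold changes of the 9 enzymes, 118 kept direction and side of the threshold and 6 changed sign, all with 1 library left out. The ranges were -0.49 (without knockout 2) to 1.84 for A4gnt, -0.28 (without knockout 1) to 0.66 for Gcnt3, -0.34 (without knockout 1; -0.02 without wild type 2) to 0.45 for B3gnt3, and, positive without wild type 1 only, -0.29 to 0.10 for C1galt1 and -0.26 to 0.08 for C1galt1c1. Log2 ratios (knockout minus wild type) that changed sign were Gcnt3 to Gcnt1 (-0.97 to 0.54), C1galt1 to C1galt1c1 (-0.13 to 0.11) and Gcnt3 to C1galt1 (-0.03 to 0.74). The log2 ratio of B3gnt6 to C1galt1 was 0.51, not 0.43, without the added 0.5 counts and per kilobase of exon. The order of the 10 genes by mean level per kilobase was the same with the longest transcript as length. In fits with 1 library left out, the lone sample is assumed to vary like the other genotype. The sample numbers are not stated to pair libraries. Deviations of same-numbered libraries correlated at 0.517 across 14067 genes, and with the replicate block 0 genes passed, with an adjusted p of 0.127 for B4galnt3. Depth limits B3gnt6, at 2 to 4 counts per library, and no difference in it could be detected.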
